A study of Mus musculus with 16 samples.

Results

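Ccl3, Ccl4, Ccl5, Ccl9, Ccl1 and Xcl1 are 6 chemokine genes that CD8 T cells can transcribe, picked here by symbol from the 55536 annotated genes of the mouse count table. They were picked with their difference between Tardbp gRNA and Control gRNA libraries already known, so that difference is given below as a description and carries no test. All 6 were among the 16650 genes with enough counts to be fitted.

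Chemokines are small secreted proteins that bind receptors of the G protein-coupled class and steer the movement of leukocytes. Ccl3, Ccl4 and Ccl5 are inflammatory ligands (Ccl3 and Ccl5 bind Ccr1), Xcl1 is the ligand of Xcr1 on cross-presenting dendritic cells, Ccl1 is the ligand of Ccr8, and Ccl9 is a Ccr1 ligand best known from myeloid cells. Activated CD8 T cells release Ccl3, Ccl4, Ccl5 and Xcl1, and the mRNAs of several of these ligands respond quickly to T cell receptor signals.

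The libraries asked what loss of TDP-43, the RNA-binding protein encoded by Tardbp, does to the RNA of costimulated CD8 T cells. CD8 T cells of OT-I transgenic mice on C57BL/6J, whose receptor sees an ovalbumin peptide, were electroporated with Cas9 complexed to a scrambled gRNA (Control gRNA, 8 libraries) or to a gRNA against Tardbp (Tardbp gRNA, 8 libraries). They were transferred into C57BL6/J recipients, which in both groups received the antigen together with agonist anti-OX40 and anti-41BB antibodies. Spleen and lymph nodes were taken and CD8 T cells sorted at 4 days per the labels, so electroporation, Cas9, transfer, peptide and both antibodies are common to all 16 libraries. The study's text also speaks of a stimulation of the purified cells before sequencing, which the labels do not describe, so whether the RNA was taken straight from the sort is not settled here. Per the study's methods the donors lacked Rag, and cells were sorted on congenic markers. The model has limits. A single gRNA was used per target and edited cells were not separated from unedited ones. An age was not given for each library. Nothing in the labels says whether the libraries of a group came from separate electroporations, so p-values measure the spread between these libraries.

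Control gRNA libraries held between 73649630 and 93893357 counts, those of Tardbp gRNA between 56016533 and 94801105. Tardbp itself lay between 171.8 and 206.9 CPM (counts per 1000000, scaled by the trimmed mean of M-values) in Control gRNA and between 110.4 and 147.2 in Tardbp gRNA, a log2 fold change of -0.51 ± 0.06 (SE, edgeR quasi-likelihood test, adjusted p = 8.07e-07). The mRNA was thus lower in every Tardbp gRNA library and still present in all of them. These counts do not measure the protein, which the study reports as absent by immunoblot from pooled cells given the Tardbp gRNA. The concentration of input RNA recorded by the sequencing core was at least 34.9 for Control gRNA (up to 197.1) and at most 24 for Tardbp gRNA (down to 10.1, unit not given in the header), so group and RNA concentration cannot be told apart. All 10 T cell marker genes were higher in Tardbp gRNA and their sum moved from a median of 8670 CPM to 12300 CPM (exact two-sided permutation p = 0.000155, the smallest that 8 against 8 can give, adjusted p = 0.00124). In sorted bulk cells a change in the number of cells making an mRNA cannot be told apart from a change in mRNA per cell.

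Sequence context was taken for the members from RefSeq promoter windows (GRCm38.p6) and from GENCODE transcripts. The RefSeq table held windows for Ccl1, Ccl3, Ccl9 and Xcl1. The 250 bases before the start are shown for the 3 of these genes with the higher levels, because they let a reader see what the region upstream of a member looks like. Capitals mark matches on either strand to an NF-kB pattern (GGG, then 5 bases of any kind, then CC) or to the letters TGANTCA (AP-1), GGAAA (the NFAT core), TCACACC (T-box) or CCACCC (KLF), and matches may overlap. All 3 genes lie on the minus strand, at chr11:83649379-83649628 for Ccl3, chr11:82179813-82180062 for Ccl1 and chr1:164935523-164935772 for Xcl1.
Ccl3: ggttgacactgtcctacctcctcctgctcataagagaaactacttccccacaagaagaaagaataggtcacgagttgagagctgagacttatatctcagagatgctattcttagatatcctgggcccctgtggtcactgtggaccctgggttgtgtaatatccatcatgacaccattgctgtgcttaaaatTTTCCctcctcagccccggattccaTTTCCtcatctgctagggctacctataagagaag
Ccl1: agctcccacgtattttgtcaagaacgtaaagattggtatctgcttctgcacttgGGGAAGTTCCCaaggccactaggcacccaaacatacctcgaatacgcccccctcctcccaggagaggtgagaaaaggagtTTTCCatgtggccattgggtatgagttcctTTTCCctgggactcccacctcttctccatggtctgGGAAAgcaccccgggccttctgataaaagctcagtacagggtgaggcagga
Xcl1: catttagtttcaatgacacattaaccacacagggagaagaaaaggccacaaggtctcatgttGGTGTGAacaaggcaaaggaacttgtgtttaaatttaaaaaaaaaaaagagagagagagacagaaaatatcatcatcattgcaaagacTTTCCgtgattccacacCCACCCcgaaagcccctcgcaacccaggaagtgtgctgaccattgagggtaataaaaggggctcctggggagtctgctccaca

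GGAAA was the only pattern with a match in all 4 member windows, Ccl9 included, and 55.6% of all 32851 windows of the same length hold it. The Ccl3 window held 2 matches to GGAAA and none to the other patterns. The Ccl1 window held 3 matches to GGAAA and a pair of overlapping NF-kB matches, a pattern found in 45.8% of windows. Xcl1 had 1 match each to GGAAA, to TCACACC (3.33% of windows) and to CCACCC (28.1%). Ccl9 had 2 matches to GGAAA, 1 of them inside its NF-kB match, and 1 each to CCACCC and TGANTCA (6.75%). TGTGTG, a DNA form of the UG repeat that TDP-43 binds in RNA, occurred once in the Xcl1 window on either strand and in no other, against 17.9% of windows. These are matches of letters and not measured sites.

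Many short-lived cytokine mRNAs carry AUUUA elements in the 3′ UTR, which decay factors such as Zfp36 recognise. The stretch of 30 bases richest in ATTTA (capitals) is shown for Ccl3 and Xcl1, read from the transcript in the 5′ to 3′ direction, to show what the element looks like in them. The stretches lie in the 3′ UTR at chr11:83648075-83648104 for Ccl3 and chr1:164931644-164931673 for Xcl1, both on the minus strand of GRCm38.
Ccl3: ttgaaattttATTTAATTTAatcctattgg
Xcl1: ttataagtaataaatATTTAttattgatga

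The Ccl3 3′ UTR of 409 bases held 5 ATTTA, and 0.657% of the 1066 expressed 3′ UTRs within 20% of that length held as many. That of Xcl1 (141 bases) held 1, and 22.0% of UTRs of like length held as many. No ATTTA occurred in the 3′ UTRs of Ccl5 (199 bases) or of Ccl1-202 (167 bases). The long 3′ UTR of Ccl9 (2465 bases) held 5, a number that 41.4% of UTRs of its length reach. In the spliced transcripts, TGTGTG occurred once in Ccl5 and once in Xcl1 and not in the other 4, while 22.6% to 76.8% of transcripts of like length hold it.

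Among the inflammatory ligands, Ccl5 (ENSMUSG00000035042.2, GRCm38 chr11:83525778-83530518, minus strand) had the widest separation between the groups. It lay at 3.54, 7.27 and 10.3 CPM (lowest, median and highest of 8) in Control gRNA and at 55.2, 75.5 and 100.9 CPM in Tardbp gRNA. The lowest Tardbp gRNA library stood far above the highest Control gRNA library. The mean rose from 6.75 ± 2.18 to 73.8 ± 14.6 CPM (SD, n = 8 each), 10.9-fold, and the fitted log2 fold change was 3.45 ± 0.19 (SE). By that value Ccl5 ranked 10 among the 16650 genes fitted, counted from the highest.

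Ccl4 (ENSMUSG00000018930.3, chr11:83662584-83664683, plus strand) lay at 7.33, 9.37 and 15.8 CPM in Control gRNA and at 28.8, 43.5 and 73.0 CPM in Tardbp gRNA. The groups did not overlap, and the 2 highest values belonged to Tardbp gRNA libraries 4 and 6. The mean was 10.2 ± 2.72 against 46.0 ± 13 CPM, 4.49-fold, with a log2 fold change of 2.17 ± 0.18 (SE).

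Ccl3 (ENSMUSG00000000982.5, chr11:83647844-83649355, minus strand), the neighbour of Ccl4, lay at 6.73, 8.82 and 12.01 CPM in Control gRNA and at 19.1, 27.6 and 45.2 CPM in Tardbp gRNA. Here too the groups stood apart and Tardbp gRNA library 4 was highest. The mean went from 9.18 ± 1.902 to 28.3 ± 8.52 CPM, 3.09-fold, with a log2 fold change of 1.63 ± 0.17 (SE).

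Xcl1 (ENSMUSG00000026573.7, chr1:164931644-164935527, minus strand), is the only member outside chromosome 11. It lay at 46.4, 68.4 and 103.5 CPM in Control gRNA and at 123.8, 184.1 and 349.4 CPM in Tardbp gRNA. The groups did not overlap, although Control gRNA library 1 came close to Tardbp gRNA library 2. The mean rose from 73.3 ± 21.3 to 206 ± 75.6 CPM, 2.81-fold, with a log2 fold change of 1.49 ± 0.21 (SE), the smallest of the 6. Gm20743, a noncoding gene on the opposite strand, overlaps Xcl1, and since the library kit does not mark strand, reads in the overlap cannot be assigned to either gene. Gm20743 itself was counted at means of 1.84 and 3.45 CPM.

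Ccl1 (ENSMUSG00000020702.13, chr11:82176657-82305690, minus strand), the Ccr8 ligand, lay at 1.89, 3.59 and 6.65 CPM in Control gRNA and at 2.58, 10.9 and 20.5 CPM in Tardbp gRNA. The groups overlapped: 5 Tardbp gRNA libraries exceeded all Control gRNA libraries, while Tardbp gRNA libraries 1, 2 and 8 fell within their range. The mean was 3.80 ± 1.81 against 11.6 ± 6.86 CPM, 3.04-fold, with a log2 fold change of 1.601 ± 0.39 (SE).

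Ccl9 (ENSMUSG00000019122.8, chr11:83572919-83578636, minus strand) was close to the limit of detection. It lay at 0, 0.141 and 0.448 CPM in Control gRNA and at 0.0388, 0.827 and 1.74 CPM in Tardbp gRNA, which rests on 131 counts over the 8 Control gRNA libraries and 525 over the 8 Tardbp gRNA libraries. It had no count in Control gRNA libraries 3 and 8, where 0 counts allow up to 0.037 and 0.039 CPM (3 counts, counting error only). In Tardbp gRNA, 6 libraries exceeded all of Control gRNA and library 7 held 3 counts. The log2 fold change was 2.02 ± 0.70 (SE). Lyz2, a myeloid marker, went from 10.9 to 32.8 CPM (log2 fold change 1.58, adjusted p = 0.00417) and S100a8, a neutrophil marker, from 0.195 to 1.14 CPM (2.56, adjusted p = 0.0316). Of the 11 fitted myeloid markers, 4 were called higher, 0 lower and 7 were not called, where 23.5% of all fitted genes were called higher. Itgam went from 8.35 to 5.64 CPM and Clec7a from 0.596 to 0.545 CPM, neither of them called. The part of such cells in the Ccl9 values was not tested.

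**Figure D1:**
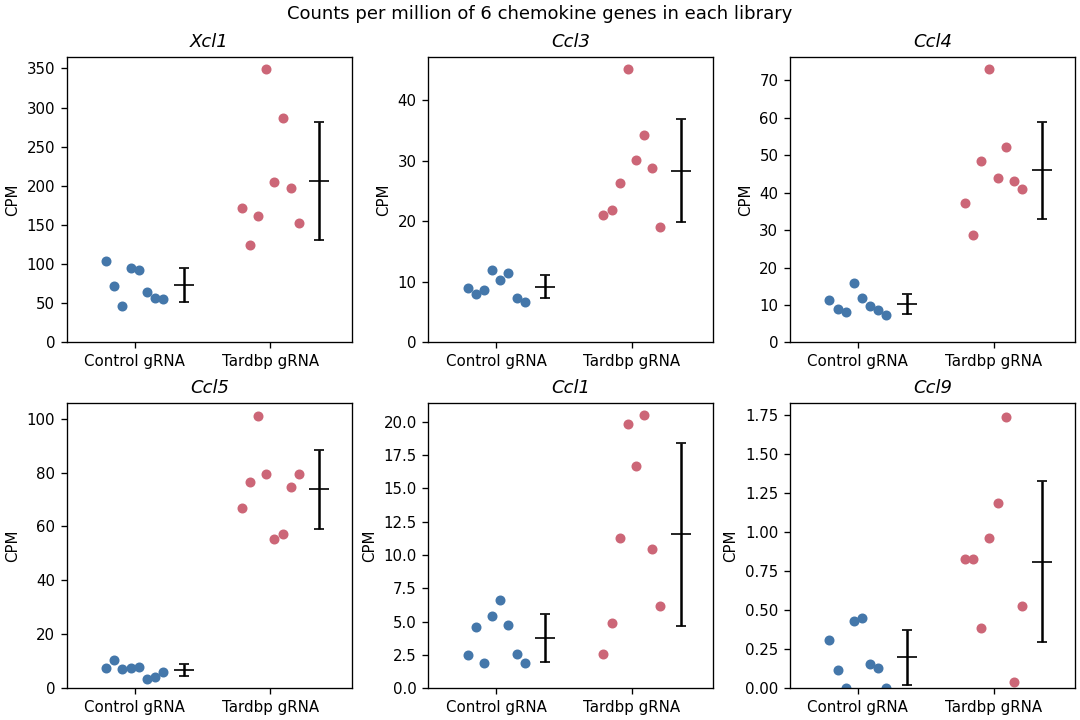
CPM of the 6 genes in each library, with libraries 1 to 8 from left to right within a group, each panel on its own linear axis from 0, and the black mark giving the mean with its SD (n = 8). In the panels of Xcl1, Ccl3, Ccl4 and Ccl5 the Tardbp gRNA points lie above all Control gRNA points, as between 55.2 and 100.9 CPM for Ccl5, whereas in those of Ccl1 and Ccl9 the groups overlap.

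All 6 members were called higher at an adjusted p under 0.05, as were 23.5% of all fitted genes (23.3% were called lower, 46.7% in either direction), and 4 of 6 did not overlap between the groups, higher in Tardbp gRNA, as for 6.61% of all fitted genes (16.9% in either direction). These counts follow from how the members were chosen. The median log2 fold change was 1.82 over the members and 0.05 over all fitted genes. Called genes were split 50.2% higher, and 60.9% higher with scaling by total count only, under which the median of all genes moved to 0.12 and the members' log2 fold changes lay between 1.56 and 3.52.

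The fold changes were also fitted in subsets of the libraries, and differences between subsets were not tested. In libraries numbered 1 to 3 the log2 fold change was 1.01 ± 0.27 (SE) for Xcl1 and 1.01 ± 0.53 (SE) for Ccl1. In those numbered 4 to 8 it was 1.71 ± 0.23 for Xcl1 and 1.78 ± 0.375 for Ccl1. Ccl5 was at 3.24 and 3.58, Ccl3 at 1.40 and 1.72, Ccl4 at 1.98 and 2.24, and Ccl9 at 2.21 and 1.93. With RNA concentration (log2) added to the fit, a term that shares most of its variation with the group, Ccl5 stood at 3.51 ± 0.42 (SE), Ccl3 at 1.79 ± 0.39, Ccl4 at 2.70 ± 0.39 and Xcl1 at 2.23 ± 0.45. Ccl1 (2.39 ± 0.995, SE) and Ccl9 (4.52 ± 1.95, SE) were no longer called under that term, nor in libraries numbered 1 to 3, and Ccl9 was not called in libraries numbered 4 to 8 or without Tardbp gRNA library 6. Leaving out each library in turn gave 1.31 to 1.57 for Xcl1 and 3.35 to 3.56 for Ccl5.

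**Figure D2:**
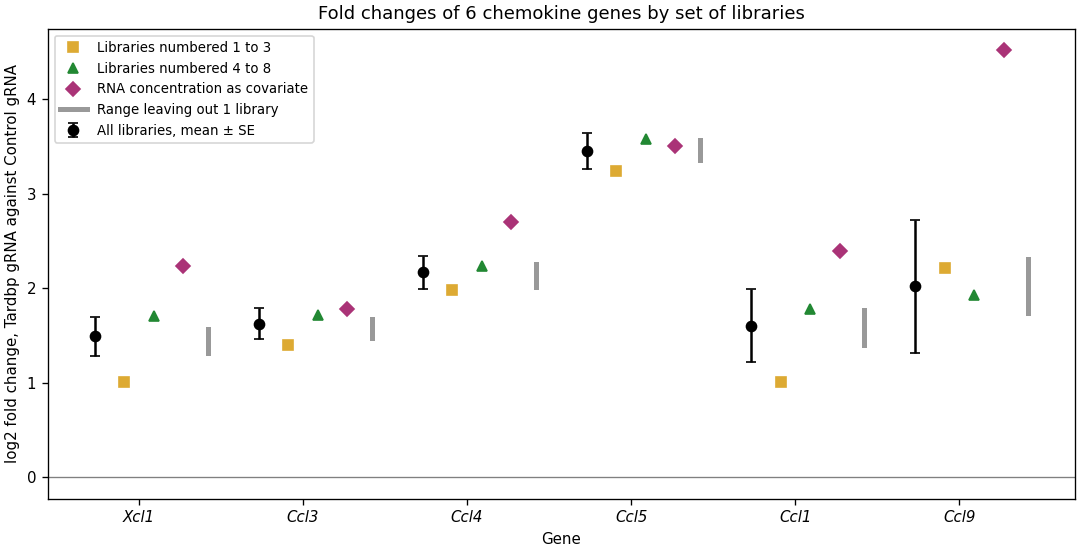
Log2 fold change of each gene (Tardbp gRNA against Control gRNA) over all 16 libraries with its SE (black), in libraries numbered 1 to 3 (squares) or 4 to 8 (triangles), with RNA concentration as a covariate (diamonds), and the range when each library is left out in turn (grey bars). All values are above 0. Ccl5 stays between 3.24 and 3.58, while Ccl9 reaches 4.52 with the covariate.

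Levels between genes were compared per transcript length, as TPM (a transcript's share of all transcripts, times 1000000). In Control gRNA, Xcl1 led at 230 ± 63.6 TPM (SD, n = 8), followed by Ccl4 (25.5 ± 6.66), Ccl5 (20.8 ± 6.75), Ccl3 (19.7 ± 4.12), Ccl1 (11.9 ± 5.67) and Ccl9 (0.109 ± 0.0965). Xcl1 stood above every other member in all 8 libraries. Ccl4 exceeded Ccl5, and Ccl5 exceeded Ccl3, in 5 of 8 libraries each, so these neighbours in the order did not differ beyond their spread. In Tardbp gRNA the order was Xcl1 (618 ± 215 TPM), Ccl5 (218 ± 43.1), Ccl4 (109 ± 28.6), Ccl3 (58.1 ± 16.3), Ccl1 (34.2 ± 19.8) and Ccl9 (0.440 ± 0.301). Each exceeded the next in all 8 libraries, although over the group the ranges of Ccl5 and Ccl4, of Ccl4 and Ccl3 and of Ccl3 and Ccl1 met.

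The make-up of the summed CPM of the members, not scaled by transcript length, is given as a description. The sum over the 6 genes was 103.5 ± 26.8 CPM in Control gRNA (72.3 to 136.2) and 366 ± 99.9 CPM in Tardbp gRNA (256.6 to 568). Of that sum, Xcl1 gave 64.2% to 77.1% in the Control gRNA libraries and 46.4% to 63.4% in the Tardbp gRNA libraries. Ccl5 gave 3.76% to 9.94% and 12.6% to 29.8%. Neither share overlapped between the groups. Both shifts follow from the member values above, with the largest fold change for Ccl5 and the smallest for Xcl1.

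**Figure D3:**
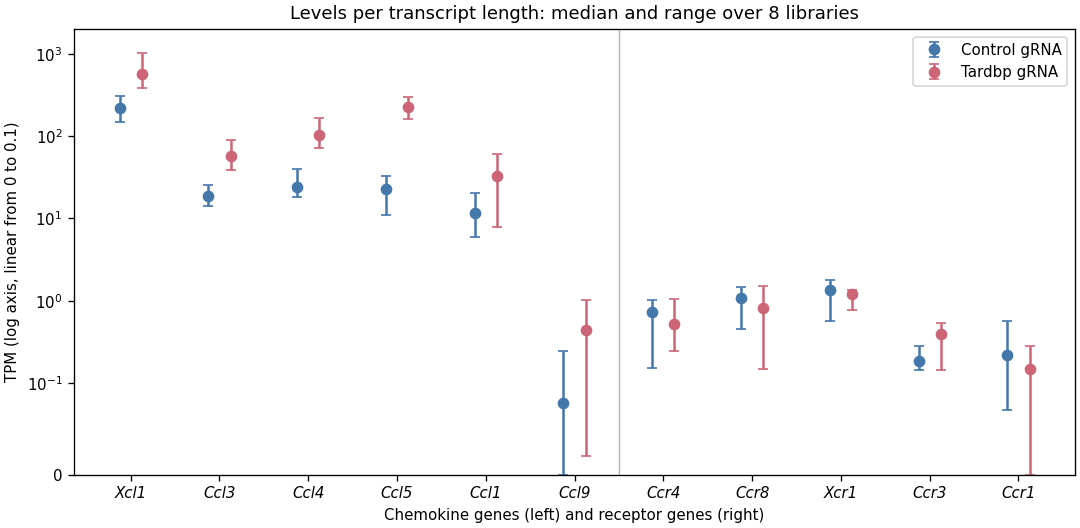
TPM of the 6 chemokine genes (left) and of 5 receptor genes (right) on a log axis that is linear below 0.1. Points are medians and bars the range over 8 libraries. Xcl1 is highest in both groups, Ccl5 moves from a median of 22.5 to 224 TPM, and the 5 receptor genes stay below 2 TPM in every library.

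Of the 8 genes for receptors of the members, 6 were fitted and 1 was called (46.7% of all fitted genes were), with a median log2 fold change of -0.24. Xcr1, which binds Xcl1, had a mean of 3.65 CPM in Control gRNA and 3.15 in Tardbp gRNA and was not called. The called gene was Ccr3, a low-abundance receptor of eosinophils that binds Ccl5, which rose from 0.387 to 0.800 CPM (1.04 ± 0.26, SE, adjusted p = 0.00279). Ccr1, Ccr4 and Ccr8 were not called, and Ackr1 and Ackr2 were too low to be fitted.

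Of the 32 other chemokine ligand genes of the mouse, 11 had enough counts to be fitted and 1 rose, where 23.5% of all fitted genes were called higher. Ccl27a, a ligand of Ccr10, went from 2.43 ± 0.256 to 4.22 ± 0.654 CPM (log2 fold change 0.79 ± 0.11, SE, adjusted p = 9.22e-06) with no overlap. Cxcl10, an interferon-induced ligand of Cxcr3 with the highest CPM of the 32, was at 8.60 ± 3.06 and 11.3 ± 3.71 CPM and was not called. Ccl25 was at 5.85 and 6.22 CPM. Ccl6, which sits between Ccl9 and Ccl3, was at 0.972 and 1.86 CPM and was not called either. The median of the 11 log2 fold changes was 0.77.

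Within a group the members did not move as a single block. Over 15 pairs in each of the 2 groups (30 relations of log2 CPM, n = 8 libraries each, exact permutation tests over all pairings, Benjamini-Hochberg adjusted over the 30), 7 had an adjusted p under 0.05 by Pearson's r and 5 by Spearman's rho. In Tardbp gRNA, Xcl1 correlated with Ccl3 (r = 0.91, p = 0.00122, adjusted p = 0.0258, and rho = 0.88, p = 0.00724, adjusted p = 0.0435, by exact permutation). Without the 2 libraries farthest from the median of Ccl3, r was 0.85. Xcl1 and Ccl4 correlated in Tardbp gRNA (r = 0.90, exact permutation p = 0.00258, adjusted p = 0.0258, and rho = 0.81, p = 0.0218, adjusted p = 0.0594). They also did in Control gRNA (r = 0.84, exact permutation p = 0.00811, adjusted p = 0.0386, and rho = 0.88, p = 0.00724, adjusted p = 0.0435). Without the 2 libraries of the group farthest from the median of Ccl4, r was 0.64 in Tardbp gRNA and 0.92 in Control gRNA. Xcl1, Ccl3, Ccl4 and Ccl1 thus went up and down together from library to library in Tardbp gRNA, with r between 0.74 and 0.91 over their pairs, of which 4 had an adjusted p under 0.05.

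In Tardbp gRNA, Ccl5 had lower r than the pairs of that set, a difference that was not tested. Its r with the other members ran from -0.05 to 0.40 over Control gRNA libraries and from -0.44 to 0.06 over Tardbp gRNA libraries, none with an adjusted p under 0.05. With Xcl1 it was 0.40 in Control gRNA (rho = 0.55) and -0.32 in Tardbp gRNA (rho = -0.45), with exact permutation p-values of 0.329 and 0.442 for r and 0.171 and 0.267 for rho (adjusted 0.549, 0.698, 0.256 and 0.365). Ccl9 correlated with Xcl1 (r = 0.88) and Ccl4 (r = 0.86) in Control gRNA, with exact permutation p-values of 0.00238 and 0.00491 (adjusted 0.0258 and 0.0368), on few counts. The rho values were 0.83 and 0.95 (exact permutation p = 0.0172 and 0.00129, adjusted p = 0.0572 and 0.0335). Without the 2 libraries farthest from the median, of Ccl9 for the first pair and of Ccl4 for the second, r was 0.87 and 0.89. In Tardbp gRNA these values were 0.25 and 0.12. In Control gRNA all 3 of these genes were higher in every library entered as M than in any entered as F, with Ccl4 at 11.3 CPM or more against 9.74 or less and Ccl9 at 0.313 or more against 0.154 or less. The part of that sex entry in these correlations was not tested. Differences between the groups in r were not tested. Within a sex entry (M or F) no group holds 6 libraries, so no within-entry value was computed.

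**Figure D4:**
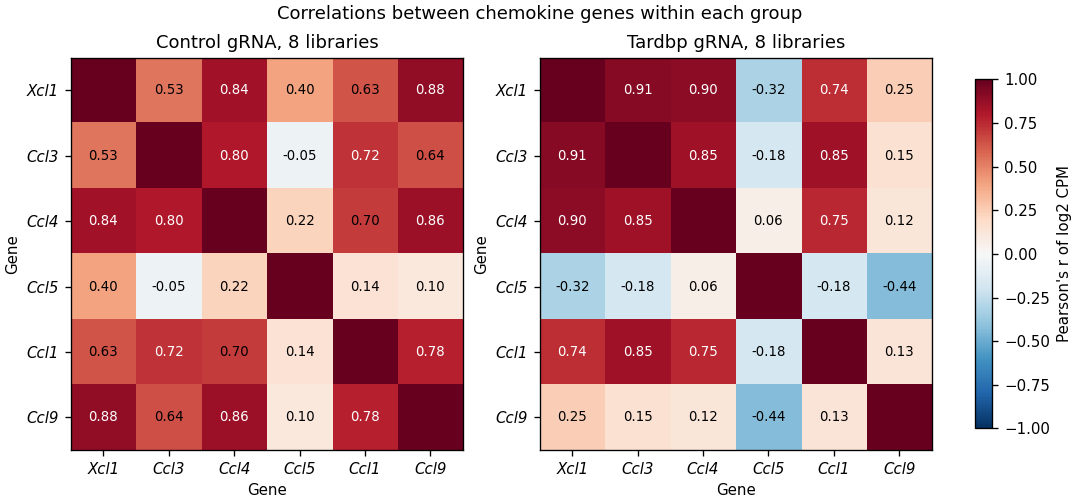
Pearson's r of log2 CPM between each pair of chemokine genes over the 8 libraries of Control gRNA (left) and of Tardbp gRNA (right), with red for positive and blue for negative values. The Ccl5 row is pale or blue in both panels, from -0.44 to 0.40, whereas Xcl1, Ccl3, Ccl4 and Ccl1 share values of 0.53 or more.

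Among the 8976 fitted genes whose log2 CPM averaged 3 or more, the most alike genes were found by Pearson's r over the 16 libraries after the mean of each group was subtracted. For Xcl1 they were Cd8a (r = 0.93), the co-receptor gene of these cells, then Ccl4 (0.87) and Bcl2a1b (0.86). For Ccl4 they were Trbv12-1 (0.90), Xcl1 (0.87) and Smim8 (0.86), and for Ccl3 Bcl2a1b (0.83), Trmt5 (0.82) and Ccl4 (0.82). Ccl5 had a different company, Gab3 (0.93), Ikzf3 (0.89) and Rmnd5b (0.87). Ccl1 was closest to Tmem173 (0.88), Cd160 (0.88) and Cd82 (0.88), and Ccl9 to Pfkfb3 (0.78), Fxr1 (0.76) and Mtor (0.73). These are the highest of many values and are given as a description.

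After Cd8a was seen to lead the list for Xcl1, the members were set against the summed T cell markers, the RNA concentration and the total counts within each group (36 relations, n = 8, exact permutation tests). Cd8a is part of that marker sum and was found by a search of these same libraries. The p-values for the marker sum do not allow for that search. The relation of Ccl4 to the T cell markers in Tardbp gRNA was the only 1 with an adjusted p under 0.05 (r = 0.97, p = 0.000149, adjusted p = 0.0054, and rho = 0.98, p = 0.000397, adjusted p = 0.0143, by exact permutation). Without the 2 libraries farthest from the median of the marker sum, r was 0.94. In the same group r was 0.87 for Xcl1, 0.83 for Ccl1, 0.80 for Ccl3 and 0.12 for Ccl9. Their adjusted p-values were 0.13, 0.131, 0.171 and 0.898 (exact permutation). For Ccl5 in Tardbp gRNA, r with the T cell markers was 0.01 (exact permutation p = 0.976, adjusted p = 0.976, and rho = 0.10, p = 0.84, adjusted p = 0.916). In Control gRNA the r of Ccl5 was 0.68 (exact permutation p = 0.0603, adjusted p = 0.271, and rho = 0.79, p = 0.0279, adjusted p = 0.33). The other members ran from 0.43 (Ccl3) to 0.75 (Xcl1) there. Between the groups the marker sum differed by 0.50 on the log2 scale. The members, picked with that contrast known, differed by 1.49 to 3.45. The part of the T cell marker level in the members' differences was not tested.

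Other cell types that make these ligands were looked at by their markers. The summed natural killer markers, which lymphocytes rich in Ccl3, Ccl4, Ccl5 and Xcl1 would carry, were low, 0.551 to 3 CPM over Control gRNA libraries and 0.972 to 4.65 CPM over those of Tardbp gRNA (difference 1.03 on the log2 scale, exact permutation p = 0.0416, adjusted p = 0.0555). Of the 5 genes of that list 2 were fitted and neither was called by edgeR (Ncr1 0.774 and 1.14 CPM, Klrb1c 0.723 and 1.32 CPM). None was at 0 in all libraries. Summed myeloid markers lay at 119 to 159 CPM and at 132 to 209 CPM (adjusted p = 0.0214, exact permutation), with 4 of 11 fitted genes called higher, and dendritic markers at 15.7 to 33.5 and 26.3 to 37.2 CPM (adjusted p = 0.0326, exact permutation), with 1 of 3. B cell markers lay at 485 to 748 and 645 to 887 CPM (adjusted p = 0.00497, exact permutation), with Ighm the 1 of 7 called. Ighm alone went from 403.8 to 640.4 CPM, while Cd74 was at 181.8 and 126.8 CPM (not called), so that sum is mostly a single gene. The myeloid sum is likewise mostly Cst3 (112.9 and 123 CPM) and the dendritic sum mostly Itgax (23.3 and 28.8 CPM, not called). Summed red cell markers lay at 0.442 to 17.4 and 9.02 to 181 CPM (adjusted p = 0.0214, exact permutation), with 4 of 4 globin genes called. CD4 T cell markers (1.38 to 9.90 and 2.25 to 7.26 CPM) and platelet markers (0.0937 to 2.60 and 0.328 to 2.52 CPM) had adjusted p-values of 0.983 and 0.0796 by exact permutation. Over all fitted genes, 23.5% were called higher. The part of these other cell types in the chemokine values was not tested.

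The sex entry in the deposited sample sheet, M or F, offered a comparison that the choice of members did not use. In Control gRNA, Xcl1 was at 59.0 ± 9.85 CPM in 5 libraries entered as F and 97.2 ± 5.57 in 3 entered as M, without overlap, and in Tardbp gRNA at 185 ± 28.3 (3 libraries) and 219 ± 95.2 CPM (5 libraries), with overlap. The log2 difference M minus F was 0.48 ± 0.18 (SE, edgeR unadjusted p = 0.0166, adjusted p = 0.997). For Ccl4 it was 0.38 ± 0.15 and for Ccl9 1.42 ± 0.63 (edgeR unadjusted p = 0.0238 and 0.0376), for Ccl3 0.25 ± 0.16, for Ccl5 0.20 ± 0.18 and for Ccl1 0.36 ± 0.39, all with an adjusted p of 0.997. All 6 estimates were positive and 0 members were called. Over all genes, edgeR called 0 (0%), with 661 at an unadjusted p under 0.05, and DESeq2 called 1, not a member. For the interaction of entry and group edgeR also called 0 (0%), with 662 at an unadjusted p under 0.05, and DESeq2 1, again not a member. Transcripts of Y-linked genes were present in all 16 libraries, at a summed 66.1 to 140 CPM in those entered as M and 100.4 to 147.3 in those entered as F. Xist was present in all 16 as well, at 9.82 to 69 CPM in those entered as M and 12.3 to 41.9 in those entered as F. The RNA thus did not separate the entries.

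Counts of the members were divided among their annotated transcripts. Ccl3, Ccl4 and Xcl1 have a single annotated transcript each, so all their counts fall on it and nothing can be read from the division. Ccl5-201 took 97.8% ± 1.64 of Ccl5 counts in Control gRNA and 98.5% ± 0.311 in Tardbp gRNA, the remainder falling on Ccl5-202, annotated as a retained intron. Ccl1 counts were divided between Ccl1-202 (83.0% ± 8.91 and 84.2% ± 6.10) and Ccl1-201, which has the longer 3′ UTR, in ranges that overlapped. The noncoding Ccl1-203, which stretches the gene to its full annotated length, had counts in 1 library only.

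Ccl5, Ccl9, Ccl3 and Ccl4 lie within 139 kb of chromosome 11, and Ccl1 is 1.22 Mb away in a separate cluster. Within 200 kb of the members lie 43 other genes, of which 8 were fitted. Of these, 3 were called higher and 2 lower in Tardbp gRNA, against 23.5% and 23.3% of all fitted genes. Heatr9 stood out. It begins 3.6 kb beyond the 3′ end of Ccl5 on the same strand and went from 11 counts over 8 Control gRNA libraries, with 6 libraries at 0, to 457 over 8 Tardbp gRNA libraries (18 to 119 per library, median 0.632 CPM, adjusted p = 1.66e-05 by edgeR). The kit does not mark strand, and whether these reads come from Heatr9 transcripts or from RNA extending past Ccl5 was not tested. On the other side of the cluster, Wfdc17 and Heatr6 were not called.

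1700020L24Rik was higher (2.75 to 4.52 CPM, log2 fold change 0.71 ± 0.20, SE, edgeR adjusted p = 0.0061), and Taf15, which encodes an RNA-binding protein, was lower (6.05 to 3.46 CPM, -0.81 ± 0.10, SE, edgeR adjusted p = 3.49e-06). Ap2b1, an adaptor subunit of endocytosis, was lower as well (103 to 80.6 CPM, -0.35 ± 0.07, SE, edgeR adjusted p = 0.00067). Gm20743, which overlaps Xcl1, was higher (0.90 ± 0.23, SE, edgeR adjusted p = 0.00347), with the limit on strand given above. None of the 10 genes around Ccl1 had enough counts to be fitted. The genes bordering the Ccl5 to Ccl4 cluster thus moved in both directions, as did called genes over all fitted genes.

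**Figure D5:**
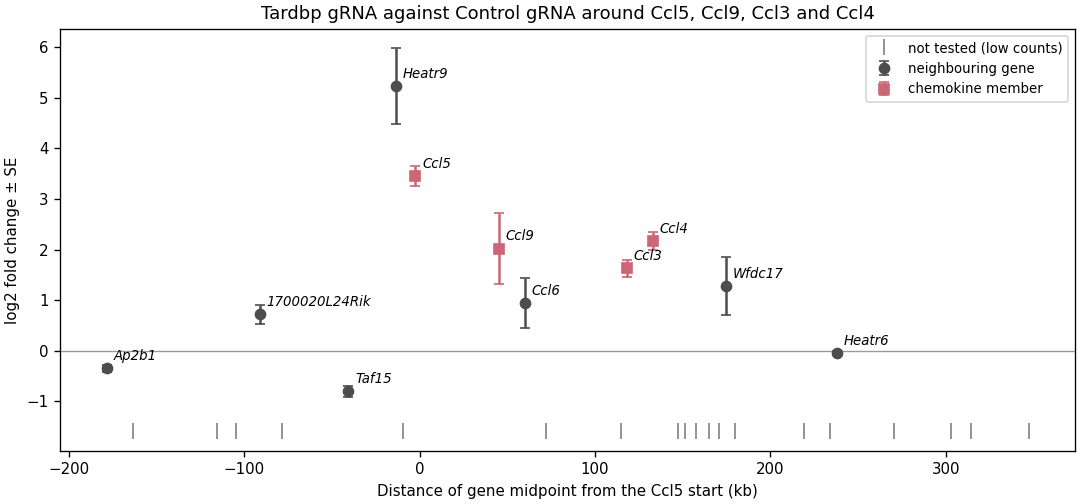
Log2 fold change with SE of fitted genes against the distance of their midpoint from the Ccl5 start (kb), with chemokine members in red, other genes in grey and genes with too few counts as ticks. Heatr9, next to Ccl5, has the highest value, fitted on 11 counts in Control gRNA, and Taf15 and Ap2b1 lie below 0.

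Genes known to act on chemokine transcription changed in both directions. Of 30 transcription factor genes, 10 rose and 5 fell (50%, against 46.7% of all fitted genes), with a median log2 fold change of 0.10. Egr2 and Egr1, immediate early factors of T cell receptor signalling, rose from 8.25 to 25.1 CPM (1.604 ± 0.26, SE, edgeR adjusted p = 6.3e-05) and from 14.8 to 32.1 CPM (1.12 ± 0.17, SE, edgeR adjusted p = 3.05e-05). Prdm1, which encodes the effector factor Blimp-1, fell from 14.0 to 6.97 CPM (-1.003 ± 0.22, SE, edgeR adjusted p = 0.000937). Tbx21, which encodes T-bet, fell from 340 to 250.7 CPM (-0.44 ± 0.08, SE, edgeR adjusted p = 0.000202).

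Factors that bind AU-rich elements or remove poly(A) tails were also split, with 5 of 16 higher and 4 lower (56.2% called, against 46.7% of all fitted genes, median 0.06). Zfp36l1 and Zfp36, which target AU-rich mRNAs for decay, rose from 27.3 to 46.7 CPM (0.77 ± 0.11, SE, edgeR adjusted p = 2.27e-05) and from 24.8 to 41.9 CPM (0.76 ± 0.08, SE, edgeR adjusted p = 3.06e-07). Cnot1, the scaffold of the deadenylase complex, fell from 155.1 to 90.5 CPM (-0.78 ± 0.08, SE, edgeR adjusted p = 6.19e-07), and Khsrp from 35.3 to 25.4 CPM (-0.47 ± 0.13, SE, edgeR adjusted p = 0.00473).

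Of 8 genes for binding or processing of chemokines, 1 rose and 3 fell (50%, against 46.7% of all fitted genes, median -0.04). Srgn, which encodes the granule proteoglycan serglycin, rose from 214.4 to 334.4 CPM (0.64 ± 0.10, SE, edgeR adjusted p = 6.08e-05). Dpp4, whose protease trims the amino end of several chemokines, fell from 261.4 to 192.9 CPM (-0.44 ± 0.05, SE, edgeR adjusted p = 2.11e-06). Ext2, a heparan sulfate polymerase subunit, fell from 104 to 83.3 CPM (-0.32 ± 0.07, SE, edgeR adjusted p = 0.000969).

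Of 10 effector genes that CD8 T cells make along with chemokines, 6 rose and none fell, where 23.5% of all fitted genes were called higher (median 0.41). The count was 4 without the low-count filter and 4 to 6 when each library was left out in turn (4 without Control gRNA libraries 3, 5, 7 or 8, or Tardbp gRNA libraries 4, 5, 6, 7 or 8). Ifng rose from 8.68 ± 2.30 to 21.4 ± 4.29 CPM (1.30 ± 0.16, SE, edgeR adjusted p = 2.44e-06) and Tnf from 13.4 ± 0.980 to 24.9 ± 4.6 CPM (0.90 ± 0.10, SE, edgeR adjusted p = 9.67e-07), both without overlap. These values are RNA only. For the protein, the study reports the other direction, with less IFNγ and TNFα secreted by cells given the Tardbp gRNA after restimulation in culture. Fasl and Lta rose least, by 0.38 and 0.43 (edgeR adjusted p = 0.043 and 0.0474). These lists were put together with earlier results of the same libraries known.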

How the data were processed

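RNA of sorted mouse CD8 T cells (8 Control gRNA and 8 Tardbp gRNA libraries, 1 per recipient) was sequenced from SMART-Seq v4 and Nextera XT libraries. The authors deposited estimated counts per gene and transcript, whole numbers made from mm10 alignments with HISAT2 2.1.0, SAMtools 1.9 and StringTie 2.1.0 per the submitters' processing notes; lines with no annotated gene (0.0836% to 0.132% of counts) were left out. The authors also deposited a splicing table of Psi per group, with columns of their own comparison; its Psi columns are marked by letter only, so it was not used. The deposited core sheet gave the read counts of each library. Each count table held 10 columns of other samples, which were not used. Members, lists and alternatives were chosen with earlier results of these data known.

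Genes passing edgeR's filter (minimum count 10, total 15, proportion 0.7) were fitted with edgeR 4.0.16 (quasi-likelihood test, trimmed mean of M-values, Benjamini-Hochberg, called at an adjusted p under 0.05) in R 4.3.3, with DESeq2 1.42.0 as an alternative; SE is the fold change over the root of F. Log2 CPM used a prior count of 2. TPM was computed from transcript counts and GENCODE M21 lengths. Marker sums and correlations were tested by exact permutation (SciPy 1.17.1, NumPy 2.4.6). Genes were named by rule: the members, Tardbp, the 2 called genes with the highest and the 2 with the lowest fold change in each list (mean log2 CPM of at least 3, all called ligands and receptors), the 3 genes most alike each member and called genes within 200 kb; other names were chosen after their values were seen. In simulated data for the group contrast over 16650 genes, 63% of 100 genes changed 2-fold and 93% of 100 changed 4-fold were called. For the sex entry these were 70% and 90%, and for the interaction 46% and 68%. A receptor gene and a sequence are not reported here.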

Additional observations from a re-analysis of the deposited data

How the results depend on the processing

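The 6 members kept a positive log2 fold change under all alternatives run, and between 4 and 6 of them were called, those lost being Ccl1 and Ccl9. With log2 RNA concentration added, 2697 genes were called in place of 7783, the fold changes of Ccl4, Ccl9 and Xcl1 moved to 2.70, 4.52 and 2.23, and 8 transcription factors, 3 decay factors, 1 binding or processing gene and 0 receptors were called (edgeR); 1 receptor was called by DESeq2 with no such term. Libraries numbered 1 to 3 gave 1696 called genes, 1.01 for Xcl1, and 4 transcription factors, 3 decay factors, 2 binding or processing genes, 2 effector genes and 0 receptors, from fewer samples. Called ligands outside the members were 3 with DESeq2 or with the sex entry as a covariate, 2 with total count scaling, without the count filter or with the replicate block, and 1 to 4 when each library was left out (4 without Control gRNA library 4, 3 without Control gRNA library 5 or Tardbp gRNA library 2, 2 without Control gRNA library 6 or Tardbp gRNA library 1). Without the count filter 2 receptors were called. A prior count of 0.5 raised the correlated pairs of Control gRNA from 3 to 5, and total count scaling took the natural killer marker difference to 1.09, past the threshold. The entry difference of Ccl3 turned to -0.032 with the replicate block, and its interaction ran from -0.315 to 0.0074 when each library was left out. Over all genes, same-numbered libraries correlated at -0.005 to 0.16, with 2 of 8 pairs over 0.1, and 2 of 8 libraries correlated best with their own number. The replicate block called 7645 genes. Under it the SE was 0.085 for Ccl3 (0.17 without), 0.11 for Ccl4 (0.18), 0.28 for Ccl1 (0.39) and 0.16 for Xcl1 (0.21). For Ccl5 it was 0.17 (0.19 without) and for Ccl9 0.73 (0.70). Whether the members pair by replicate number was not tested. Except where stated, the cause was not tested. The precision of Ccl9 rests on 0 to 155 counts per library.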
